A study of Mus musculus with 12 samples.

Results

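The cytosolic ribosomal protein genes were read in common lymphoid progenitors (CLPs), the bone marrow cells from which lymphocytes derive. Members were chosen by symbol alone: every gene named Rpl or Rps followed by a digit, together with Rpsa, Rplp0, Rplp1 and Rplp2, leaving out the Rps6k kinases and the pseudogenes. This rule took 87 of the 47643 genes of the table. Of these, 77 are genes of the ribosome itself, 46 of the large subunit and 31 of the small subunit, 9 are paralogs of such genes, and 1, Rps19bp1, is a binding protein of Rps19 that is taken in only by its name.

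The libraries came from 4 wild-type (WT) mice, 4 mice lacking the long noncoding RNA gene Firre (∆Firre, here KO), and 4 doxycycline-fed ∆Firre mice that carried a Firre transgene (Firre rescue, here Rescue). All mice were males 27 to 32 weeks old, and each library held the CLPs of 1 mouse, sorted as Lin- Sca1lo cKitlo IL7Ra+ cells. The deletion removes the X-linked Firre gene from the germline through CMV-Cre, so it is carried in every cell. In Rescue, the same deletion is combined with a Firre cDNA under a tetracycline-responsive minimal CMV promoter and with rtTA3 driven by the CAG promoter, and the doxycycline is given in the chow. The transgenes and the doxycycline come together in the Rescue group, so their effects and that of Firre RNA cannot be told apart in the comparison with KO. WT and KO libraries carry numbers from the same pair of ranges and all Rescue libraries carry numbers from the third, so for Rescue the group and the library number range cannot be told apart either.

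The ribosome is built from ribosomal RNA and about one protein of each kind per particle, and the small subunit reads the message while the large subunit makes the peptide bond. Ribosomal protein mRNAs are among the most abundant and most stable messages of growing cells. Most of them start with a run of pyrimidines, the TOP element, through which nutrient signals by way of mTOR and the RNA-binding protein Larp1 set their translation and their stability. Lymphoid progenitors depend strongly on ribosome production when they begin to divide, and Rpl22 is a known requirement of early lymphocyte development.

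The start of these mRNAs is shown for 8 members, all taken from the 14 whose annotated start opens a pyrimidine run, as counted below. Members without such a run are not shown. The 8 were chosen to span the members that differed much and little between groups and the near-identical pair Rps27 and Rps27rt. Each window holds 10 bases before and 20 bases from the RefSeq transcription start, 5′ to 3′ on the gene's own strand in build GRCm38.p6, and capitals mark the unbroken run of C and T that begins at the start.
Rplp2: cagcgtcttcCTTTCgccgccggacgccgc
Rps18: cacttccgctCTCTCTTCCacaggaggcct
Rps10: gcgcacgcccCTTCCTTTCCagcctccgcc
Rpl28: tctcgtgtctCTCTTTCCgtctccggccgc
Rpl38: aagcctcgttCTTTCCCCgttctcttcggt
Rps27: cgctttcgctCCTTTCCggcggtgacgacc
Rps27rt: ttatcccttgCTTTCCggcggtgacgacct
Rps6: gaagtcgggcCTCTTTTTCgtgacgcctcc

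These windows lie at chr7:141447641-141447670 (plus strand) for Rplp2, chr17:33955646-33955675 (minus) for Rps18, chr17:27635225-27635254 (minus) for Rps10, chr7:4792955-4792984 (plus) for Rpl28, chr11:114668570-114668599 (plus) for Rpl38, chr3:90213629-90213658 (minus) for Rps27, chr9:114982720-114982749 (minus) for Rps27rt and chr4:86857348-86857377 (minus) for Rps6. A run of at least 5 pyrimidines that opens with C at the annotated start was found in 14 of the 66 members with a start window. Counted by window, 17.9% of member windows and 2.51% of all windows held it. The share among members depends on the exact base at which RefSeq places each start.

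Ribosomal protein transcripts took a larger share of the Rescue libraries than of any WT or KO library. Levels are given in TPM, a scaled transcript number that divides reads by gene length and sets each library to the same total. The members summed to 128416, 122179, 119803 and 130582 TPM in WT mice 6, 8, 10 and 11, and to 134682, 118265, 113152 and 128832 TPM in KO mice 8, 9, 11 and 12. In Rescue mice 1, 2, 3 and 4 they summed to 193989, 206605, 177790 and 203981 TPM. The lowest Rescue library thus lay above the highest WT and KO libraries, while the WT and KO libraries overlapped. The members made up 11.98% to 13.06% of all TPM in WT, 11.3% to 13.5% in KO and 17.8% to 20.7% in Rescue. The mean sum in Rescue was 1.58 ± 0.164 times that in KO (SD of the libraries carried into the ratio, n = 4 and 4) and 1.56 ± 0.122 times that in WT, and the mean sum in KO was 0.988 ± 0.0879 times that in WT. Among the 100 genes of highest TPM, 47 to 48 were members in WT, 46 to 49 in KO and 60 in each Rescue library.

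Both subunits took part in this shift. The large subunit genes, P stalk included, summed to 65523 ± 2393 TPM in WT, 64239 ± 4475 TPM in KO and 99947 ± 6085 TPM in Rescue (SD, n = 4 in each). The small subunit genes summed to 58336 ± 2699, 57965 ± 5206 and 93255 ± 6746 TPM. The ratio of the large to the small subunit sum was 1.10 to 1.15 in WT, 1.08 to 1.13 in KO and 1.05 to 1.09 in Rescue, so the ranges of KO and Rescue overlapped and those of WT and Rescue did not. The order of the members by level was much the same in all groups, with a Spearman correlation of mean log2 level across 85 members of 0.987 between WT and KO, 0.963 between WT and Rescue and 0.944 between KO and Rescue. This is a description across genes that share libraries, and genes are not replicates. In bulk libraries such as these, fewer cells of a type and less RNA per cell cannot be told apart.

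**Figure D1:**
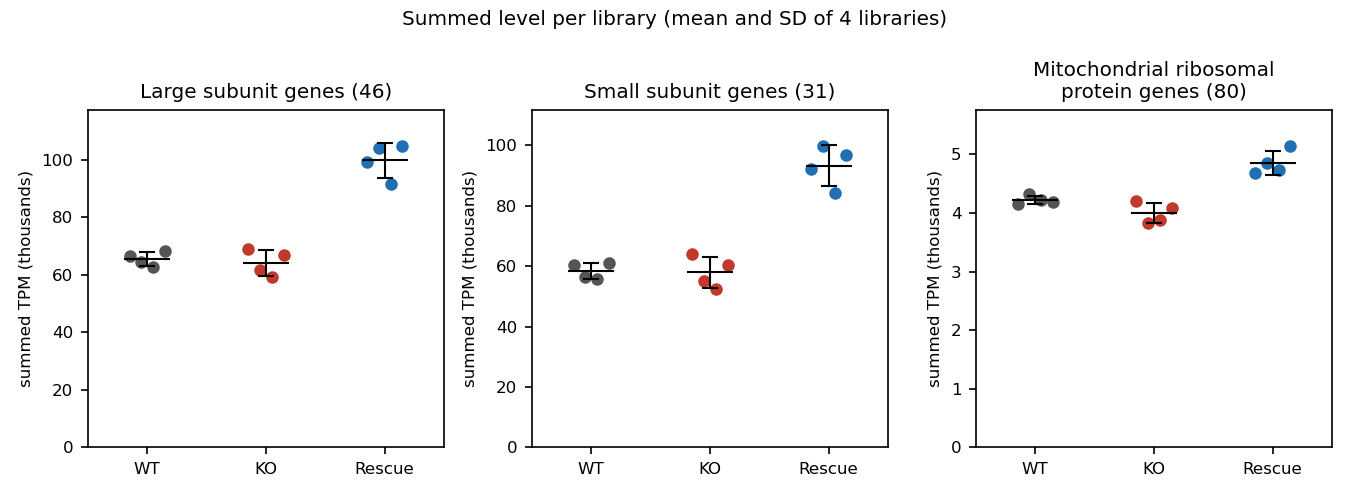
Summed TPM of the 46 large subunit genes, the 31 small subunit genes and 80 mitochondrial ribosomal protein genes in each library by group, with the mean and SD of 4 libraries. In each panel all Rescue libraries lie above all WT and KO libraries, and the WT and KO libraries overlap.

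A gap in depth accompanied the groups. Reads recovered from the TPM values numbered 10990895 to 18174612 per WT library, 14371907 to 17598762 per KO library and 25781679 to 32572102 per Rescue library. Firre itself was at 26.4, 31.6, 25.2 and 30.2 TPM in WT, was listed at 0 in each KO library, and was at 59.9, 135.5, 63.0 and 174.0 TPM in Rescue, which fits the labels. All 10 markers of the CLP gate and of lymphoid progenitors exceeded 1 TPM. They summed to 6659 to 9275 TPM in WT, 7766 to 8115 TPM in KO and 9298 to 10226 TPM in Rescue, without overlap of Rescue and the others, and Ly6d and Rag1 were called higher and Kit lower in both Rescue comparisons. Markers of other cells differed between groups. Over all genes tested, 8.58% were called higher and 19.3% lower in Rescue against KO, and 4.82% and 19.4% against WT. In both comparisons 7 of 7 pro-B cell markers were called higher in Rescue. Their sums were 213 to 418 TPM in WT, 280 to 370 TPM in KO and 835 to 1340 TPM in Rescue. All 6 basophil and mast cell markers were called lower in Rescue in both comparisons, with sums of 1052 to 9045, 2918 to 4291 and 64.0 to 142 TPM. The means of Gata2 and Ms4a2 fell under 1 TPM in Rescue. The sums were 509 to 1400, 328 to 1693 and 197 to 1489 TPM for 8 neutrophil markers. For the 5 erythroid markers found they were 14.0 to 69.4, 20.8 to 108 and 17.3 to 115 TPM. Among the neutrophil markers Ctsg and Mpo were called lower in both Rescue comparisons, and the erythroid marker Hba-a2 was called higher against WT. For 7 markers of type 2 innate lymphoid cells the sums were 48.3 to 85.4, 53.4 to 72.0 and 22.4 to 45.9 TPM. The means of Areg, Il5 and Il13 were under 1 TPM in all groups. Of the 4 tested, Il1rl1, Rora and Gata3 were called lower in both Rescue comparisons. For 6 markers of antibody-secreting cells the sums were 872 to 1636, 1614 to 3412 and 306 to 528 TPM. The latter list went both ways, with Mzb1 and Sdc1 called higher and Jchain, Prdm1 and Xbp1 lower in Rescue against KO. The part of depth and of cell makeup in the results below was not tested. WT mouse 6 had the highest basophil and mast cell sum, 9045 TPM, and its member sum of 128416 TPM lay within the range of the other WT libraries. The same library was the highest of the WT libraries for 28 of 85 members, Rpl36, Rplp1 and Rplp2 among them, and the lowest for 25, and WT mouse 11 was the highest for 29.

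The comparison of Rescue with KO asks how the members read when Firre is supplied from a transgene in mice that lack the gene. Ribosomal protein genes rose together: 77 of the 85 members tested were called higher in Rescue and none lower, at an adjusted p of 0.1 or less in limma's test with Benjamini-Hochberg adjustment, against 8.58% of all 14479 genes tested called higher, 19.3% called lower and 27.9% called in either direction. Their median log2 fold change was 0.60, which is 1.51-fold, beside a median of −0.16 over all genes tested. Single members ranged from −0.08 to 2.88, 83 of 85 were positive, and 16 exceeded 1 on this log2(TPM + 1) scale. In 74 members each Rescue library lay above each KO library, a pattern seen in 6.31% of all genes tested. By subunit, 42 of 46 large subunit genes were called higher with a median of 0.57, and 30 of 31 small subunit genes with a median of 0.78. Because TPM adds to the same total, a rise of the members lowers all other genes: with the total taken over genes other than members, 80 members were called higher, and the calls over all genes were 50.1% higher ones where they were 30.7% in TPM. In Rescue against WT, the same change of total gave 81 members called higher and moved the share of higher ones over all genes from 19.9% to 36.7%.

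**Figure D2:**
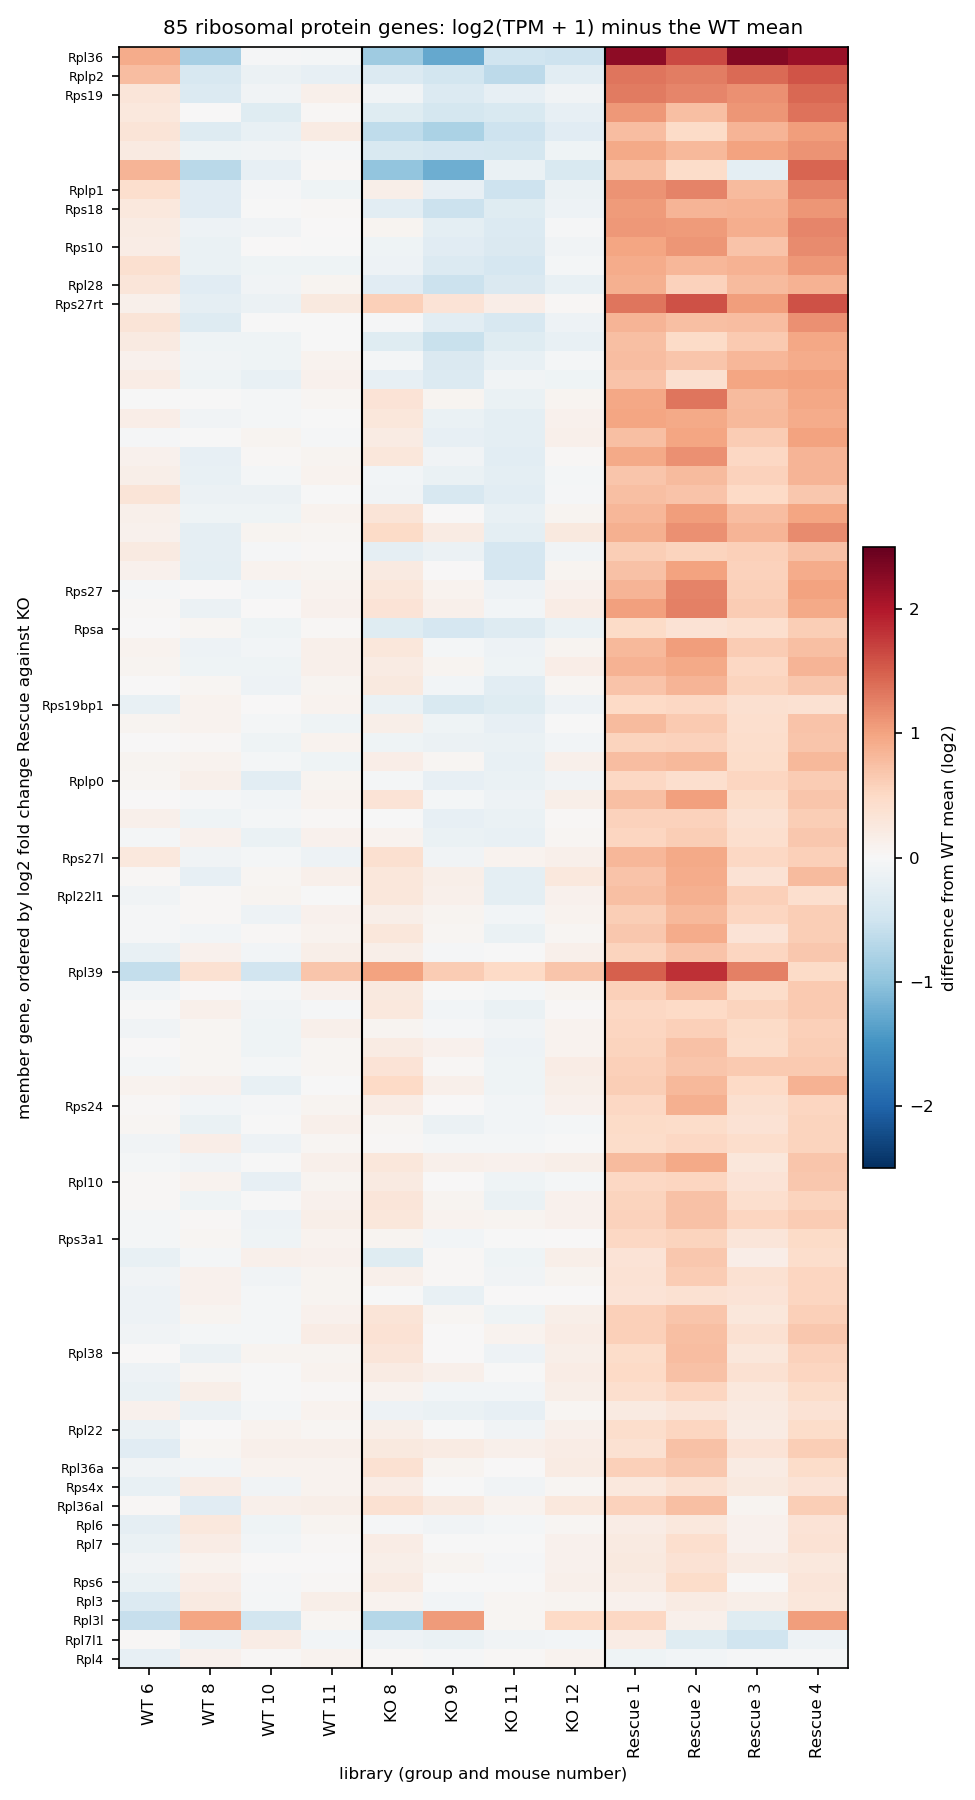
Each of the 85 tested members (rows, ordered by log2 fold change of Rescue against KO) in each of the 12 libraries (columns), coloured by log2(TPM + 1) minus the mean over the WT libraries, with some rows named. The Rescue columns are higher in most rows, from Rpl36 at the top to Rpl6, Rps6, Rpl3, Rpl7l1 and Rpl4 near the bottom, which differ little.

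The largest rises were those of Rpl36, Rplp2 and Rps19. Rpl36 (ENSMUSG00000057863.5, chr17:56610094-56614246), a protein of the large subunit, was at 738, 217, 379 and 375 TPM in WT, at 211, 159, 274 and 271 TPM in KO and at 1825, 1215, 1913 and 1743 TPM in Rescue. All Rescue libraries lay above all others, and WT mouse 6 was the highest of the WT libraries. The log2 fold change against KO was 2.88 ± 0.30 (SE, limma, adjusted p = 0.000119). Rps19 (ENSMUSG00000040952.16, chr7:24884592-24889811), a small subunit protein needed for ribosomal RNA maturation and often mutated in Diamond-Blackfan anemia, was at 410, 259, 309 and 363 TPM in WT, 313, 259, 285 and 310 TPM in KO and 817, 776, 728 and 892 TPM in Rescue. The WT and KO libraries overlapped and the Rescue libraries stood apart, with a log2 fold change against KO of 1.46 ± 0.13 (limma, adjusted p = 6.03e-05). Gene positions here are those of RefSeq in GRCm38.p6.

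The P stalk is the flexible arm of the large subunit that recruits translation factors, made of Rplp0 as its base and of Rplp1 and Rplp2 as acidic dimers. All 3 genes were called higher in Rescue in both comparisons, beside 8.58% of all genes tested against KO and 4.82% against WT. Rplp2 (ENSMUSG00000025508.13, chr7:141447651-141451359), whose start is printed above, was at 831, 369, 439 and 424 TPM in WT, 383, 356, 309 and 409 TPM in KO and 1244, 1190, 1305 and 1451 TPM in Rescue. Apart from the high WT mouse 6 library, WT and KO lay close together, and all Rescue libraries were higher still. Rplp1 was at 4388, 2692, 3191 and 3030 TPM in WT, 3606, 2834, 2269 and 2959 TPM in KO and 7134, 7723, 5659 and 7761 TPM in Rescue. Rplp0 differed least of these genes, with 2444 ± 280 TPM in WT, 2229 ± 113 TPM in KO and 3507 ± 199 TPM in Rescue. The log2 fold changes of Rescue against KO were 1.83 ± 0.20 for Rplp2, 1.28 ± 0.17 for Rplp1 and 0.65 ± 0.09 for Rplp0, with limma adjusted p-values of 0.000167, 0.000525 and 0.000773. Against WT they were 1.40, 1.10 and 0.53.

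**Figure D3:**
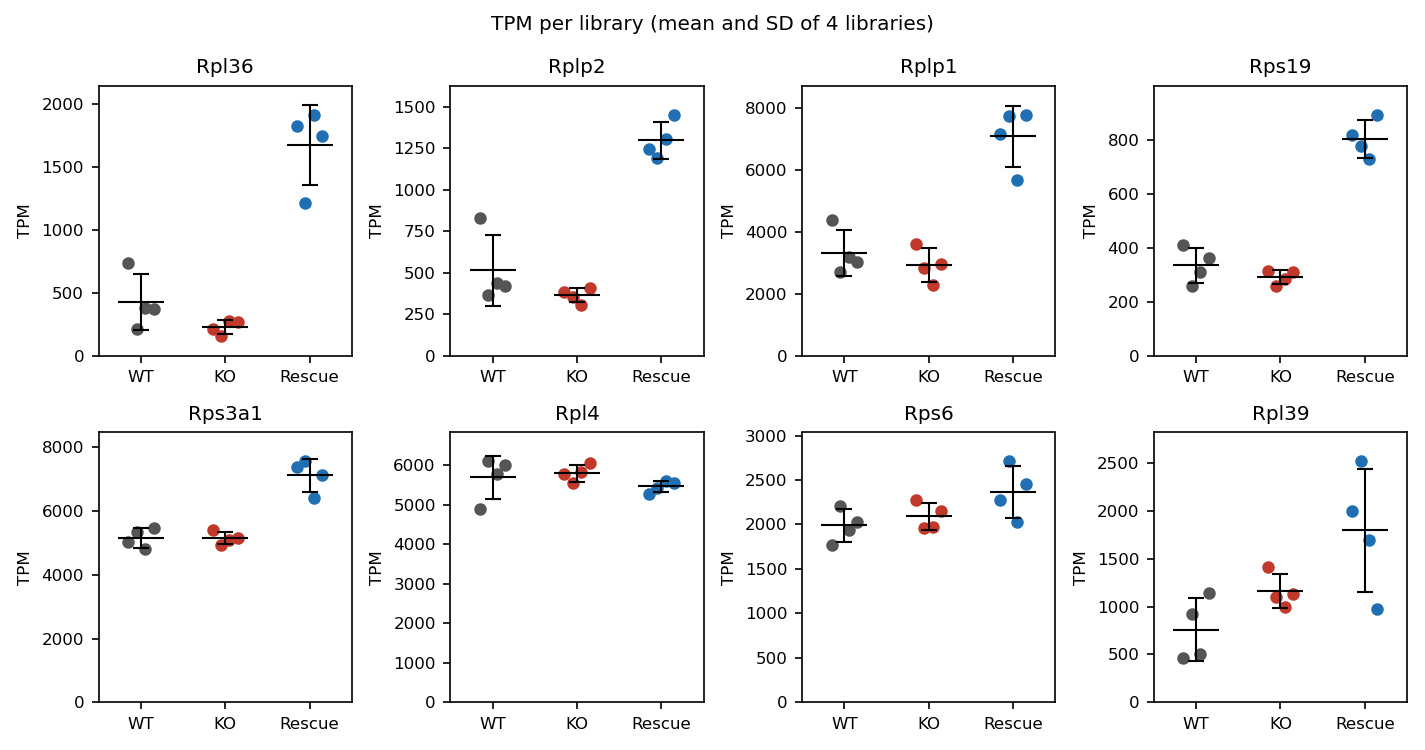
TPM of 8 member genes in each library by group on linear axes that start at 0, with the mean and SD of 4 libraries. Rpl36, Rplp2, Rplp1, Rps19 and Rps3a1 are higher in all Rescue libraries than in any other, Rpl4 and Rps6 overlap between the groups, and Rpl39 is low in WT mice 6 and 10.

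Compared with WT, Rescue gave a similar picture: 78 of 85 members were called higher and none lower, where 4.82% of all genes tested were called higher, 19.4% lower and 24.3% in either direction. The median log2 fold change was 0.64 (1.56-fold) beside −0.21 over all genes, with a range from −0.19 to 2.08. In 75 members the Rescue libraries all lay above the WT libraries, as in 3.55% of all genes tested. Large subunit genes were called higher in 43 of 46 cases (median 0.61) and small subunit genes in 30 of 31 (median 0.73). Both Rescue comparisons use the same 4 Rescue libraries, so they are not independent of each other. After Rpl36 (2.08) and Rplp2 (1.40), the largest non-overlapping rise was that of Rps27rt. Rps27rt (ENSMUSG00000050621.6, chr9:114982366-114982739) is a near-identical copy of Rps27 and can share reads with it, so its level is uncertain. It was at 349, 271, 288 and 375 TPM in WT, 482, 404, 356 and 324 TPM in KO and 807, 958, 653 and 960 TPM in Rescue, with a log2 fold change against WT of 1.39 ± 0.16 (limma, adjusted p = 0.000249).

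In 72 members each Rescue library exceeded each WT and each KO library, as in 2.81% of all genes tested. The other 13 were Rpl3, Rpl3l, Rpl4, Rpl6, Rpl7, Rpl7l1, Rpl36a, Rpl36al, Rpl38, Rpl39, Rps4y2, Rps6 and Rps27a. The members of highest level per length in WT were Rpl4, Rps3a1 and Rps24. Rpl4 (ENSMUSG00000032399.7, chr9:64173387-64178562), a protein of the peptide exit tunnel, was at 4902, 6095, 5781 and 5995 TPM in WT, 5767, 5540, 5817 and 6052 TPM in KO and 5274, 5429, 5591 and 5560 TPM in Rescue. Its libraries overlapped between all groups, and its log2 fold change was −0.08 against KO (limma, adjusted p = 0.518) and −0.05 against WT (adjusted p = 0.697). Rps3a1, a small subunit protein, was at 5166 ± 305, 5162 ± 199 and 7127 ± 513 TPM in WT, KO and Rescue, and Rps24 at 4845 ± 214, 5065 ± 384 and 7337 ± 1107 TPM (SD, n = 4). Rps3a1 rose by 0.46 in log2 against either group and Rps24 by 0.53 against KO and 0.59 against WT.

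The members called higher in neither Rescue comparison were Rpl3, Rpl3l, Rpl4, Rpl7l1 and Rps6. Rpl3, which lies close to the peptidyl transferase center, was at 1536 ± 258 TPM in WT, 1548 ± 75.03 TPM in KO and 1731 ± 89.4 TPM in Rescue. Rps6, the small subunit protein that S6 kinases phosphorylate, was at 1774, 2210, 1938 and 2032 TPM in WT, 2277, 1966, 1975 and 2153 TPM in KO and 2274, 2709, 2028 and 2451 TPM in Rescue. Its Rescue libraries overlapped both other groups, with log2 fold changes of 0.17 against KO (limma, adjusted p = 0.257) and 0.25 against WT (adjusted p = 0.116). Rps6 has one of the pyrimidine runs printed above, as have Rps18 and Rps10, which were called higher in both Rescue comparisons. Of the 14 tested members with the run, 13 were called higher against KO, with a median log2 fold change of 0.87. Of the 50 tested members with a start window and no run, 45 were called, with a median of 0.55. Over all genes tested, 8.58% were called higher against KO. These are descriptions of annotated starts, and no start was measured here.

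Other letters near the start were counted on both strands of the RefSeq windows from 250 bases before to 50 bases after each start. CCGGAAG, a core of the sites bound by ETS factors such as Gabpa, was in 34.6% of member windows and in 8.86% of all windows. AAGATGGC, the core of the YY1 motif, was in 10.3% and 2.75%, and TATAAA in 8.97% and 13.6%. A match of letters is a description and not a site.

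The 4 genes of the ribosome that lie on the X chromosome, as Firre does, were Rpl10, Rpl36a, Rpl39 and Rps4x. Rpl10, a late-joining protein of the large subunit, was at 909 ± 83.1 TPM in WT, 921 ± 95.2 TPM in KO and 1303 ± 128 TPM in Rescue. Rpl36a was at 931 ± 59.3, 1048 ± 123 and 1309 ± 186 TPM, and Rps4x, a small subunit protein, at 3211 ± 366, 3282 ± 265 and 3959 ± 163 TPM. These 3 were called higher in both Rescue comparisons, beside 8.58% of all genes tested against KO and 4.82% against WT. Their log2 fold changes against KO were 0.50 for Rpl10, 0.32 for Rpl36a and 0.27 for Rps4x, and 0.52, 0.48 and 0.31 against WT. For Rps4x the sign turned negative in both comparisons under quantile normalization. Rpl39 (ENSMUSG00000079641.3, chrX:37082518-37085222), a small protein of the exit tunnel, was the most variable of the X-linked genes. It was at 462, 919, 505 and 1143 TPM in WT, 1413, 1099, 998 and 1131 TPM in KO and 1995, 2514, 1694.1 and 979 TPM in Rescue. The low WT libraries were those of mice 6 and 10, which share a library number range. KO mice 9 and 12, of that same range, were at 1099 and 1131 TPM, between the other KO libraries. Rescue mouse 4 lay below every KO library. Rpl39 was called higher against WT (log2 fold change 1.27, limma, adjusted p = 0.0168) and not against KO (0.56, adjusted p = 0.225).

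The paralogs are copies or relatives of ribosomal protein genes, some of which can take the partner's place in the particle. Of 9, 7 were tested and 4 were called higher in each Rescue comparison, beside 8.58% of all genes tested against KO and 4.82% against WT. Rpl22l1, the partner and counterpart of Rpl22, was at 245, 269, 276 and 259 TPM in WT, 319, 288, 222 and 284 TPM in KO and 439, 485, 399 and 350 TPM in Rescue. All its Rescue libraries lay above the others, with log2 fold changes of 0.59 against KO (limma, adjusted p = 0.00591) and 0.66 against WT (adjusted p = 0.00364). Rpl22 itself rose by 0.37 and 0.41. The level of Rpl22l1 was 47.5% ± 1.43 of that of Rpl22 in WT, 48.7% ± 4.57 in KO and 57.0% ± 7.56 in Rescue (SD, n = 4), and the Rescue values, 46.1% to 63.0%, overlapped those of both other groups. Rps27l, a relative of Rps27 known as a p53 target, rose by 0.60 and 0.73, and its partner Rps27 by 0.83 and 0.92. Rps27rt stood at 28.5%, 32.6% and 39.4% of Rps27 in WT, KO and Rescue, with the Rescue range of 36.3% to 42.8% above the others.

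Other paralogs were lower or less steady. Rpl36al was called higher against WT (0.50, limma, adjusted p = 0.0298) and was at 0.27 against KO (adjusted p = 0.207). Rps4y2 is low, with 9.51 ± 4.93 TPM in WT, 5.32 ± 2.13 TPM in KO and 15.1 ± 7.72 TPM in Rescue, and was called higher against KO (1.29, limma, adjusted p = 0.0389) but not against WT (0.60, adjusted p = 0.325). Rpl7l1, which acts in ribosome assembly, was at 150 ± 14.9, 138 ± 4.197 and 133 ± 27.4 TPM, and its level relative to Rpl7 was 12.5% in WT, 10.9% in KO and 9.09% in Rescue with overlapping ranges. Rpl3l, the muscle counterpart of Rpl3, was at 7.11 ± 4.41, 8.46 ± 4.59 and 8.96 ± 3.997 TPM. The testis-type copies did not reach the mean of 1 TPM needed for testing: Rpl10l was listed at 0 in all 12 libraries, and Rpl39l reached 3.01 TPM at most. The binding protein Rps19bp1 rose in Rescue by 0.70 against KO and 0.45 against WT, from 57.5 ± 5.17 TPM in WT and 48.3 ± 4.06 TPM in KO to 78.8 ± 3.98 TPM.

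The comparison of KO with WT asks how the members read when Firre is deleted. No member was called in either direction, against 0.0207% of all genes tested called, 0.0138% higher and 0.00691% lower. On the recovered reads, limma-voom called none of all 14477 genes it tested. The 1 gene called lower in TPM was Firre, which limma-voom thus did not call or did not test. The study's own test on counts called more genes in this comparison, so few calls here do not show an absence of change. In the limma fit on TPM, 11 of 85 members had an unadjusted p under 0.05, where all genes had 767 of 14479. The median log2 fold change was 0.02, 45 members were positive and 40 negative, and single values ranged from −0.80 for Rpl36 to 0.71 for Rpl39, with a median SE of 0.11. Of the 11 members, Rpl39 was higher in KO and the other 10 were lower, among them Rpsa, Rps15, Rpl18, Rpl8, Rpl28, Rpl36, Rps18, Rps19bp1 and Rpl19. None passed the adjustment, and with each library left out in turn the number at an unadjusted p under 0.05 ranged from 3 without KO mouse 9 to 14 without WT mouse 8, with 5 without WT mouse 6.

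Few members separated the KO from the WT libraries. Rpsa, a small subunit protein also known as a laminin receptor, was at 2283, 2328, 2108 and 2317 TPM in WT and at 1818, 1677, 1793 and 2005 TPM in KO, with no overlap (log2 fold change −0.31, limma, adjusted p = 0.889). Rpl8 was lower in each KO library as well, and Rpl24 was higher in each. Over all genes tested, libraries separated this way in 4.49% of genes with KO below and in 0.843% with KO above. Within the library number range of WT mice 8 and 11 and KO mice 8 and 11, the member sum in KO was 0.981 times that in WT, and within the other range it was 0.995 times.

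**Figure D4:**
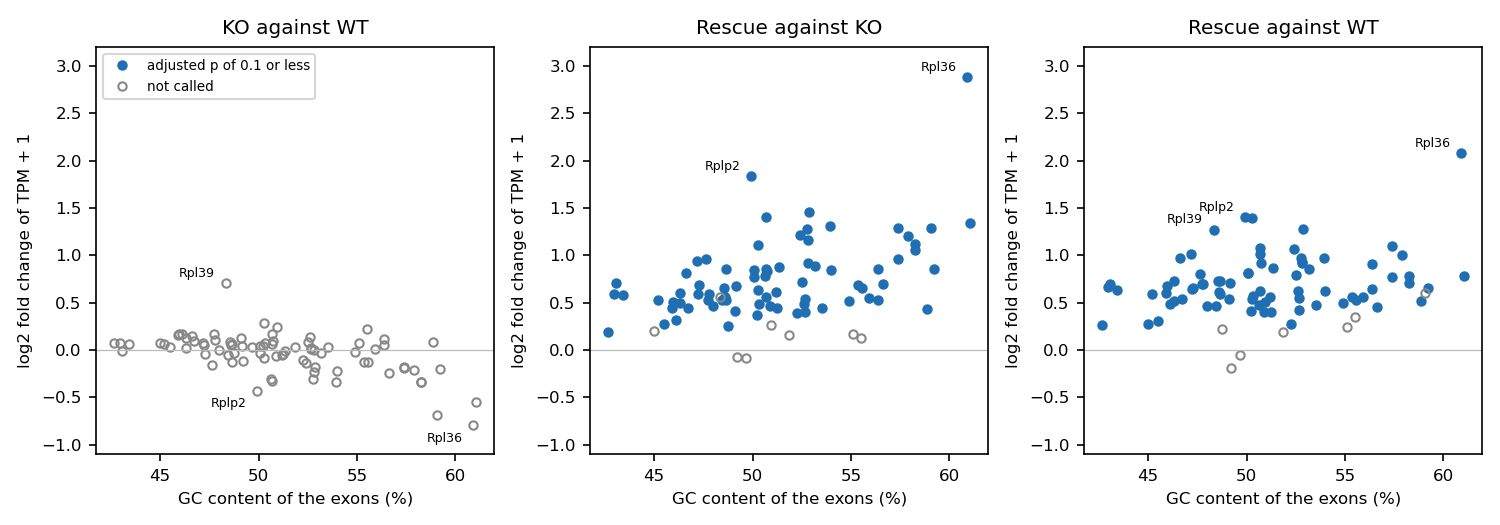
Log2 fold change of each member against the GC percent of its exons, in a panel for each comparison, with filled points for called members and open points for the others. The members of highest GC tend to lie lower in KO against WT and higher in Rescue against KO, and Rpl36 lies at the end of the range in each panel.

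The GC content of the transcripts moved with these values. In KO against WT, the members' log2 fold change had a Spearman correlation of −0.50 with GC percent over 83 members, and −0.36 over 13086 genes tested. In Rescue against KO it was 0.37 over members and 0.45 over all genes, and in Rescue against WT 0.15 and 0.32. The points share the same 12 libraries. The 28 members of lowest GC had a median log2 fold change of 0.54 in Rescue against KO, the middle 27 had 0.61 and the 28 of highest GC had 0.87. The same members had medians of 0.07, 0.03 and −0.18 in KO against WT and of 0.64, 0.56 and 0.68 in Rescue against WT. With a fit on GC percent removed from each library, an alternative added after seeing the data, 77 of 83 members were called higher in Rescue in each comparison, where 75 against KO and 76 against WT were called among the same 83 without it. Over the 13085 genes of this fit, calls against KO went from 1230 higher and 2565 lower to 1795 and 759. The part of GC in the differences among members was not tested. Members differ from other genes in length rather than in GC, with a median length of 1535 bases against 3292 and a median GC of 50.7% against 49.5%.

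Members differed from one another in how far they rose. With the median member set equal in all libraries, 22 members were higher and 22 lower in Rescue than the typical member when compared with KO, and 17 and 20 when compared with WT. Over all 14479 genes tested, this setting called 221 higher and 9504 lower against KO and 163 and 10322 against WT. In both comparisons Rpl36, Rplp2, Rps19, Rpl19, Rpl18, Rplp1 and Rps18 rose more than the typical member, and Rpl4, Rpl7l1, Rpl3, Rps6, Rpl5, Rpl7 and Rpl6 rose less or not at all. No member stood apart from the typical one in KO against WT. Within groups the members had a median coefficient of variation of 8.99% in WT, 10.3% in KO and 9.73% in Rescue, beside 18.4%, 15.4% and 25.9% over all genes tested. Many members are among the genes of highest TPM, and this spread was not compared at like level. The KO mouse 8 library was the highest of the KO libraries for 56 of 85 members, and Rescue mice 2 and 4 were the highest for 42 and 36.

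Ribosome parts outside the symbol rule behaved in part like the members. Fau, which encodes a small subunit protein as a ubiquitin-like fusion, was at 1019 ± 149 TPM in WT, 986 ± 104 TPM in KO and 2166 ± 190 TPM in Rescue and rose by 1.14 against KO and 1.09 against WT. Gnb2l1, the gene of the scaffold protein Rack1, rose by 0.39 and 0.33. The pseudogenes left out by the rule, 139 in the table, summed to 1134 to 1193 TPM in WT, 1165 to 1594 TPM in KO and 1783 to 2638 TPM in Rescue. Ribosomal protein genes have many such copies, and how reads that fit several places were counted is not given in the sources used here, so single levels may be too low or shared.

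The mitochondrial ribosome is a separate particle with its own proteins, encoded in the nucleus. Of 76 genes tested under names of mitochondrial ribosomal proteins, 1 of them the pseudogene Mrpl23-ps1, which was not called, 18 were called higher against KO and 12 against WT, and none lower, with medians of 0.17 and 0.05. Over all genes tested, 8.58% and 4.82% were called higher and 19.3% and 19.4% lower. The list's counts of higher genes against KO and WT were 25 and 23 under median ratio scaling, 31 and 28 with GC removed and 32 and 25 with length and GC removed, with none lower, and its median against WT was 0.24, 0.29 and 0.25 in these settings. Their sums were 4157 to 4327 TPM in WT, 3830 to 4210 TPM in KO and 4680 to 5138 TPM in Rescue, so Rescue did not overlap the others. Mrpl54 and Mrpl34 had the largest changes against KO, at 1.10 and 1.07.

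The counts for the machinery around the ribosome depended on the scaling. Of 30 translation factors and nascent chain factors, 7 were higher and 5 lower in Rescue against KO and 5 and 4 against WT, beside 8.58% higher and 19.3% lower against KO and 4.82% and 19.4% against WT over all genes tested. The elongation factor Eef2 rose by 0.71 against KO and was at 0.36 against WT (limma, adjusted p = 0.112), and Tpt1, itself a TOP message, rose by 0.44 and 0.43. Eef1a1, another TOP message, was at 10366 ± 1698, 10535 ± 518 and 10589 ± 604 TPM in WT, KO and Rescue, with a log2 fold change of 0.01 against KO. Eif5b, which joins the subunits, fell by 0.65. With median ratio scaling, the factors numbered 11 higher and 2 lower in either comparison, where all 14479 genes had 1901 higher and 1862 lower against KO and 1305 and 1244 against WT. Quantile normalization gave all genes 2001 higher and 1732 lower against KO and 1208 and 1210 against WT. The factors there numbered 6 higher and 7 lower against KO and 4 and 6 against WT. With GC removed they numbered 18 higher and 0 lower against KO and 13 and 1 against WT, and with length and GC removed 17 and 0 and 15 and 1. Over the 13085 genes of these fits, there were 1795 higher and 759 lower against KO and 1336 and 660 against WT with GC removed, and with length and GC removed 68.1% of the calls against KO and 66.4% of those against WT were higher ones.

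Among 35 ribosome biogenesis genes, 3 were higher and 6 lower against KO and 0 and 10 against WT. This split turned to 7 and 4 against KO and 3 and 2 against WT under median ratio scaling. With GC removed it turned to 4 and 0 and 1 and 0. Under quantile normalization it stayed mostly lower, at 4 and 6 against KO and 2 and 7 against WT. With limma-voom on the recovered reads it was 5 and 5 and 1 and 6, where all genes had 1612 higher and 2704 lower and 920 and 1978. With the total over genes other than members it was 6 and 2 against KO and 1 and 4 against WT. In TPM, all genes tested had 8.58% higher and 19.3% lower against KO and 4.82% and 19.4% against WT. Against KO, Rrp9, Bysl and Ubtf were higher in TPM, and the nucleolar proteins Ncl (−0.39), Dkc1 (−0.49), Nop58, Npm1, Gnl3 and Tsr1 were lower. Of 23 regulators of ribosomal protein synthesis, 1 was higher and 7 lower against KO and 0 and 7 against WT, beside the same shares of all genes in TPM. Under median ratio scaling they numbered 2 and 3 and 1 and 2, beside the balanced all-gene counts of that scaling. Quantile normalization gave 2 higher and 6 lower regulators against KO and 1 and 3 against WT. Myc was at 302 ± 31.1, 254 ± 49.2 and 274 ± 64.1 TPM and was not called, Mycn was lower (−0.70 against KO and −0.89 against WT), and Eif4ebp1, a brake on cap-dependent translation, was higher against KO (0.83). Of 6 snoRNA host transcripts found of 12 listed, Snhg8 was higher and Snhg20 lower in both comparisons, and Epb41l4aos was higher against WT only. Gas5, which is also a TOP message, was at −0.09 against KO. None of the genes of these lists was called in KO against WT by limma or by limma-voom on the recovered reads, and at an unadjusted p under 0.05 there were 4 of 30 translation factors, 1 of 35 biogenesis genes, 2 of 23 regulators and 9 of 76 genes of the mitochondrial list, beside 767 of all 14479 genes.

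**Figure D5:**
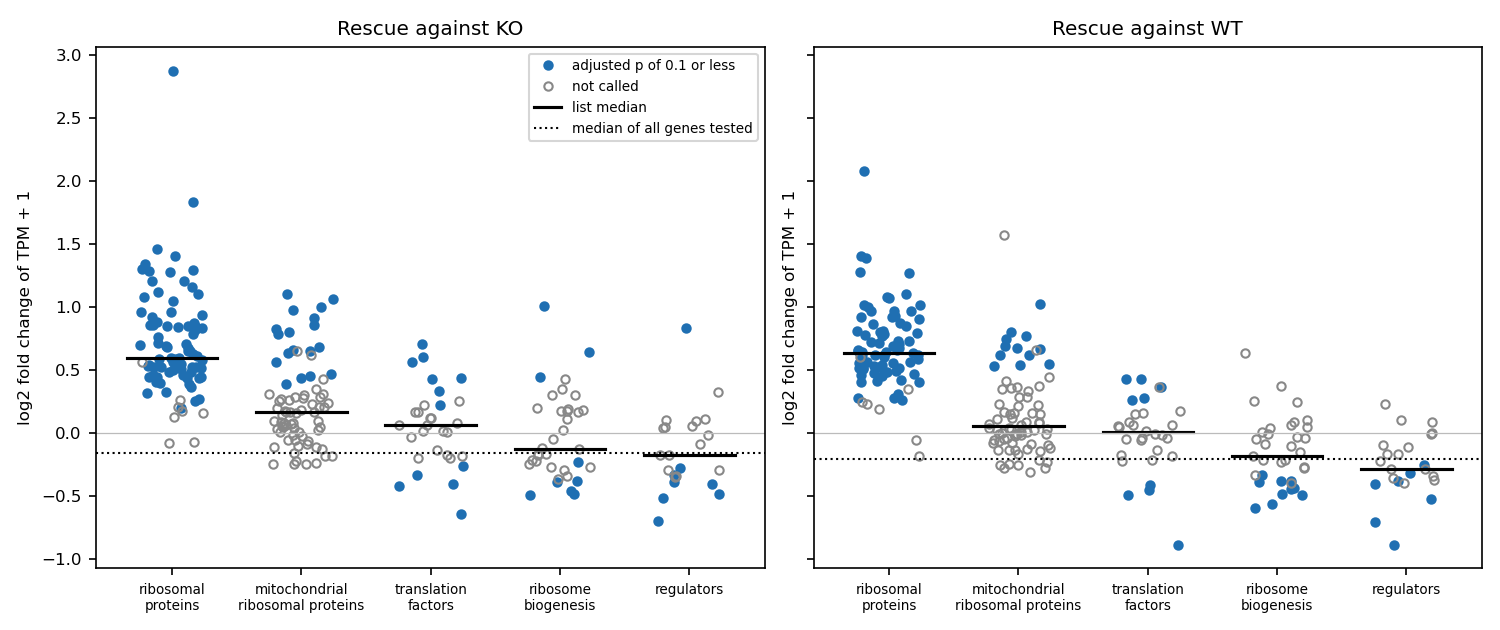
Log2 fold changes of the members and of other gene lists in Rescue against KO and against WT, with every gene as a point (filled where called), each list's median as a bar and the median of all genes tested as a dotted line. The members have medians of 0.60 and 0.64, while translation factors, biogenesis genes and regulators have medians between −0.28 and 0.06.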

How the data were processed

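Poly(A)+ RNA of sorted CLPs was sequenced by the authors, 1 library per mouse. Per the labels and the study's methods, reads were trimmed with cutadapt, mapped to mm10 with TopHat2 2.1.1 and counted per Gencode gene with featureCounts. Strand and multi-mapping settings are not given in the sources used here. The deposited values are TPM, used as deposited. Reads recovered from the spacing of the TPM values were whole, within 0.03, in all libraries for 14477 of 14479 tested genes, and were used for depth and for limma-voom only.

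Gene symbols came from the tables of the study and from a reference table, for 33060 genes. Rps12l1 and Rpl6l were left out as RefSeq pseudogenes, and Rps4y2, which RefSeq lists as the transcribed pseudogene Rps4l, was kept. Genes of mean TPM of at least 1 were fitted as log2(TPM + 1) with limma 3.58.1 in R 4.3.3, with trend and all 3 groups in 1 fit. P-values were two-sided and Benjamini-Hochberg adjusted over 14479 genes, with calls at 0.1. They measure the spread between mice.

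Genes with full values followed a rule: the 3 called members of largest rise and fall without overlap, the P stalk, the 3 members highest in WT, the X-linked members, the paralogs with their partners, Rps19bp1, Fau, Gnb2l1 and Firre, and members against the common direction. Some of these results are not reported here. Members named beyond this rule, such as Rpsa, were chosen after their values were seen. The members and lists were chosen with earlier results of these data known. Alternatives were other pseudocounts, filters, scalings, corrections for GC and length, thresholds and blocks, and leaving out each library. Read numbers cover counting error only. Start windows are those of RefSeq, GRCm38.p6.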

Additional observations from a re-analysis of the deposited data

Results flagged for a closer look

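Among 117 groups of 4 libraries looked at, 3 held a library far from the other 3, where chance gives about 1 group in 20. Rplp2 was at 830.5 TPM in WT mouse 6, with the other WT libraries at 368.7 to 438.9 TPM; without that library, its log2 fold change of Rescue against WT was 1.66 where it was 1.40 with it. Rpl39l was at 1.01 TPM in WT mouse 6 and at 0 in the other WT libraries. Rpl39l was also at 3.01 TPM in KO mouse 12, with the other KO libraries at 0 to 0.494 TPM.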

How the results depend on the processing

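The members called higher in Rescue numbered 58 to 80 against KO and 60 to 81 against WT over the other scalings, filters, pseudocounts, corrections and tools, apart from setting the median member equal, which by construction compares members with one another and gave 22 higher and 22 lower against KO and 17 higher and 20 lower against WT. Quantile normalization gave 58 and 60 higher and 1 lower in each comparison, Rpl4. Leaving out each library gave 72 to 79 higher against KO and 75 to 80 against WT, with 0 to 1 lower against WT, the 1 being Rpl7l1 without Rescue mouse 1. With the median member equal, the pathway lists had 129 called genes against KO and 147 against WT, where they had 51 and 43; this setting lowers all genes alike and called 9504 and 10322 of all 14479 lower. The ratio of the member sums of Rescue to WT was 1.80 under median ratio scaling, where it was 1.56 in TPM. That scaling moved the median of all genes from −0.16 to −0.05 against KO and from −0.21 to −0.03 against WT, and the share of higher calls over all genes from 30.7% to 50.5% and from 19.9% to 51.2%. That share was 70.3% and 66.9% with GC removed and 68.1% and 66.4% with length and GC removed. No member was called in KO against WT under any alternative.

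Signs turned under quantile normalization for Rps4x (−0.085 against KO and −0.092 against WT). With the median member set equal, these log2 fold changes against KO and WT turned: Rps3a1 −0.19 and −0.22, Rps24 −0.12 and −0.095, Rpl10 −0.15 and −0.16, Rpl36a −0.33 and −0.20, Rps4x −0.38 and −0.37, Rpl22l1 −0.059 and −0.018, Rpl36al −0.38 and −0.18, Rpl3 −0.49 and −0.50, Rpl7 −0.45 and −0.41, Rpl22 −0.28 and −0.27, Rps6 −0.48 and −0.44, Gnb2l1 −0.26 and −0.35, Rps27l −0.05 against KO, Rplp0 −0.16 against WT and Rps19bp1 −0.22 against WT. Rpl4 and Rpl7l1, called in neither Rescue comparison, turned positive in several settings, with 0.04 and 0.14 for Rpl4 under median ratio scaling.

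WT and KO share the mouse numbers 8 and 11, and these libraries lie in the same library number range. The deviations of same-numbered libraries correlated at −0.03 and −0.04, and those of crossed pairs at 0.02 and −0.05. The study describes no pairing of mice, and so few pairs cannot decide whether one existed. The replicate block called 0 members in KO against WT, as without it, and 2 genes higher and 1 lower over all genes. Low members such as Rpl3l and Rps4y2 had SEs of 0.43 and 0.40, so small differences in them were not detectable.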
